A study of Homo sapiens with 18 samples.

Results

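MDA-MB-231 is an established human cell line of triple-negative breast cancer (TNBC), and its response to the synthetic glucocorticoid dexamethasone (Dex) was compared between cells depleted of the arginine methyltransferase PRMT5 and control cells. The comparison uses 12 of the 18 libraries of the series, 3 replicates in each of 4 groups. These are cells with a non-targeting siRNA (siNS) and cells with an siRNA against PRMT5 (siPRMT5), each treated for 8 h with 100 nM Dex or with its vehicle ethanol (Eth). No other allele or agent is named in the labels. The depletion is by siRNA in 1 cell line, so it is partial and transient. The study's text calls the replicates biological, and the labels do not say how they were cultured, so the p-values measure the spread between these libraries. The quantity described is the interaction, the log2 response to Dex (Dex over Eth) in siPRMT5 cells minus that in siNS cells. A positive interaction means a response shifted upwards in siPRMT5 cells and a negative one a response shifted downwards. It was tested over 15298 genes with edgeR's quasi-likelihood test, and a gene was called at a Benjamini-Hochberg adjusted p-value under 0.05. All adjusted p-values in the text are from this test unless another is named, and each error after a log2 value is its standard error from the same fit.

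The glucocorticoid receptor (GR, encoded by NR3C1) is a nuclear receptor that moves into the nucleus when it binds a glucocorticoid such as cortisol or Dex. There it binds DNA at palindromic response elements or through other transcription factors such as AP-1, and raises or lowers transcription with the help of coregulators. PRMT5 transfers methyl groups to arginines of histones, of Sm proteins of the spliceosome and of many other proteins, and it can also act as a cofactor of transcription factors. In breast cancer cells, glucocorticoids change genes of inflammation, of metabolism, and of adhesion and migration.

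The depletion was checked first. Levels are given as CPM, the usual unit in which a gene's counts are scaled to a common library total. PRMT5 had 226, 262 and 259 CPM in the siNS Eth libraries and 244, 247 and 226 CPM in the siNS Dex libraries. It had 8.37, 7.75 and 6.10 CPM in the siPRMT5 Eth libraries and 11.5, 10.6 and 9.39 CPM in the siPRMT5 Dex libraries. All siPRMT5 libraries lay far below all siNS libraries, and the remaining PRMT5 RNA was itself higher with Dex than with Eth in depleted cells (interaction of 0.57 ± 0.15, adjusted p = 0.0297, lost without any 1 of 6 of the 12 libraries, up to 0.105). NR3C1 did not pass the test, with an interaction of 0.14 ± 0.13 (adjusted p = 0.605). The 12 libraries held between 8682992 and 12472381 counts. The mesenchymal marker VIM was at 6725 CPM or more in each of them, and the epithelial genes GRHL2 and CDH1 had no count or at most 1. Other epithelial markers were present, EPCAM at 8.57 to 12.6 CPM in every library and ESRP1 at up to 14 counts. The receptor genes ESR1 and PGR, which triple-negative cells lack by definition, reached at most 2 counts in a library, and so did the leukocyte gene PTPRC. Of the further markers of other cell types, CD3E and ALB reached at most 1 count and CD14 reached 9 counts. PECAM1 was present at 1.10 to 8.15 CPM.

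PRMT5 depletion altered the Dex response of 582 of the 15298 genes (3.8%). The interaction was positive for 241 genes (1.58% of those tested) and negative for 341 (2.23%). It had a median size of 0.61 on the log2 scale among the genes called and of 0.20 among all genes, and 93 of the 582 interactions were of at least 2-fold while 265 were under 1.5-fold. At an unadjusted p-value under 0.05 there were 2912 genes. The number of calls depended on single libraries. It was 338 without siNS Eth replicate 1, 348 without siNS Eth replicate 3, 345 without siNS Dex replicate 1, 375 without siNS Dex replicate 3, 349 without siPRMT5 Eth replicate 2 and 357 without siPRMT5 Dex replicate 2, and it lay between 432 and 807 without each of the other libraries. A core of 248 of the 582 genes was called whichever of the 12 libraries was left out. CXCR4, S1PR1, STOM, LHX6 and CYP1B1, which were named with earlier results of these data known, belonged to it.

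Within each kind of cell, a Dex response was called at an adjusted p-value under 0.01 and a change of at least 1.5-fold. In siNS cells, 252 genes rose (1.65%) and 162 fell (1.06%). In siPRMT5 cells, 412 genes rose (2.69%) and 420 fell (2.75%). Both responses were called in 294 genes, the siNS response alone in 120 and the siPRMT5 response alone in 538. A response called on 1 side only is not a difference by itself, and 447 of these 538 genes had the same sign in siNS cells. Of the 952 genes with a response in either kind of cell, 278 (29.2%) also had an interaction call, against 3.8% of all genes tested. The interaction is the difference of these same responses, so the choice of genes by a response raises this share by itself. Among the 252 genes that rose in siNS cells, 38 had a positive interaction and 18 a negative one. Among the 162 that fell, 17 had a positive interaction and 11 a negative one. Of all genes tested, 1.58% had a positive and 2.23% a negative interaction, and the siNS libraries enter both the response and the interaction.

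**Figure D1:**
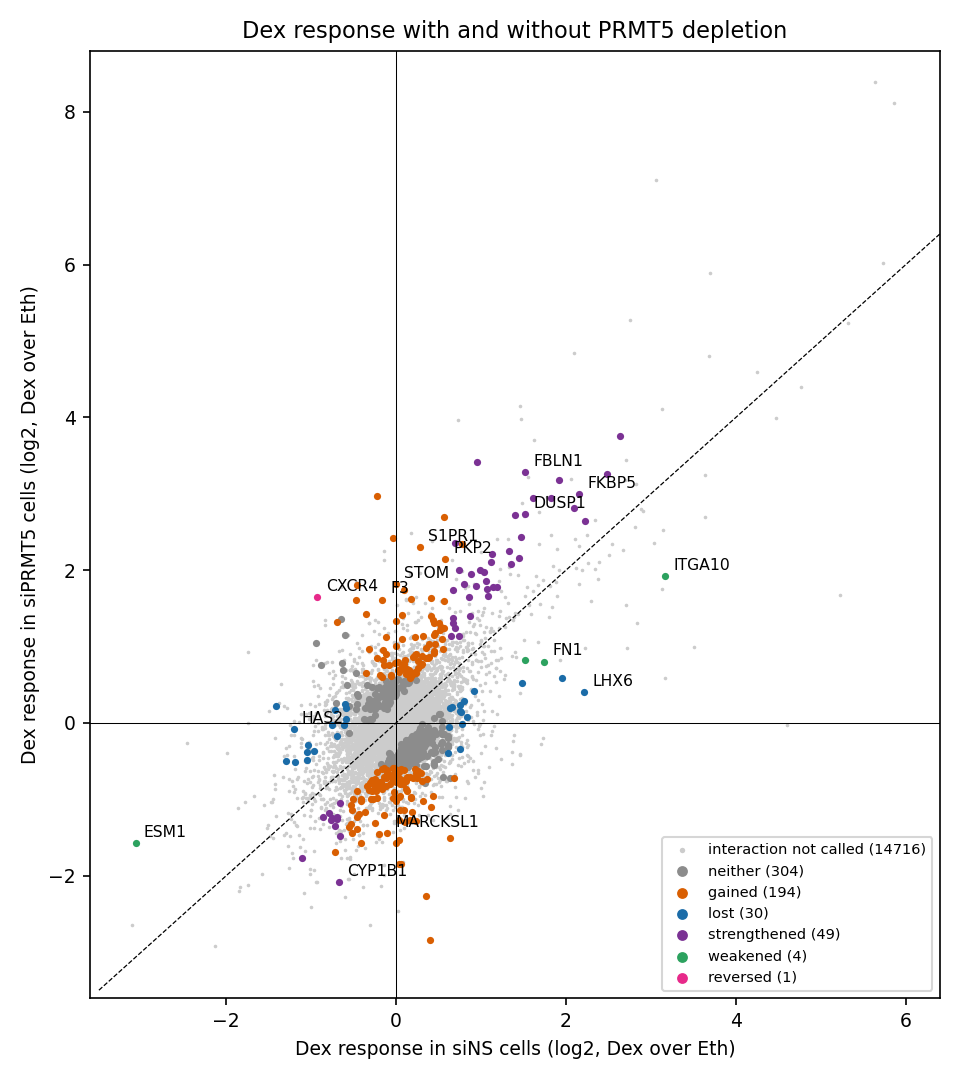
Log2 response to Dex in siNS cells (x axis) and in siPRMT5 cells (y axis) for the 15298 genes tested, 1 point per gene, coloured by class, with equal responses on the dashed line. Gained responses lie along the y axis above and below zero, and CXCR4 is the 1 gene in the upper left with opposite calls.

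The 582 genes were sorted by these responses. A response was gained when it was called in siPRMT5 cells alone, lost when it was called in siNS cells alone, reversed when both were called with opposite signs, and strengthened or weakened when both were called with the same sign and a larger or smaller size in siPRMT5 cells. Responses were gained in 194 genes (83 rises and 111 falls) and lost in 30 (15 rises and 15 falls). They were strengthened in 49 genes (38 rises and 11 falls) and weakened in 4, and 1 gene, CXCR4, reversed. The remaining 304 genes had no response called in either kind of cell, which does not make each response small. ITGB3, for example, fell by 1.61-fold in siPRMT5 cells. The responses in siNS and siPRMT5 cells were opposite in sign for 86 of the 103 genes with a positive interaction. They were so for 180 of the 201 with a negative one. These genes were chosen for a difference between responses that both missed the limits. Such a choice favours opposite signs, so these counts alone do not show reversed responses. These classes rest on thresholds: in the gained class, 34 of the 83 rises and 34 of the 111 falls also had an unadjusted p-value under 0.05 with the same sign in siNS cells, while 23 of the rises and 49 of the falls had the opposite sign there. In the lost class, 7 of the 15 rises and 6 of the 15 falls had an unadjusted p-value under 0.05 with the same sign in siPRMT5 cells, so a lost response is not an absent one. When the responses were called at an adjusted p-value of 0.05 with no fold limit, the same 582 genes held 17 reversed and 30 unclassed ones, and with a limit of 2-fold no reversed one.

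The base composition of the libraries moved with the groups. Transcripts of high GC content (the highest of 5 equal bins of genes) made up 12.1 to 12.6% of the counts in the siNS Dex libraries and 10.2 to 11.5% in the siPRMT5 Dex libraries, with 10.6 to 12.2% and 11.2 to 12.2% in the siNS Eth and siPRMT5 Eth libraries. The interaction followed it, with a median of 0.16 in the bin with the lowest GC content (29.2 to 40.4%) and of -0.21 in the bin with the highest (56.8 to 76.0%). The median GC content was 42.9% for genes with a positive interaction, 56.2% for those with a negative one and 47.2% for all genes tested with a value. A fit with a smooth GC correction for each library, chosen after the data were seen, gave 574 calls, 285 positive and 289 negative, and kept 408 of the 582 (70.1%). The share of positive calls moved from 41.4% to 49.7%. Whether the GC content is a cause of the interaction was not tested. By class, the corrected fit kept 165 of the 194 gained, 23 of the 30 lost, 46 of the 49 strengthened, 3 of the 4 weakened and the reversed gene, and 170 of the 304 with no response called. It also kept 226 of the core of 248 genes. Where it ended the call of a named gene, its adjusted p-value is given beside the gene.

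CXCR4, the receptor of the chemokine CXCL12 that guides cell migration, was the gene with opposite responses (hg38 chromosome 2, 136114349 to 136119177, minus strand). It had 6.29, 7.13 and 6.73 CPM in the siNS Eth libraries and 3.71, 4.25 and 2.72 CPM in the siNS Dex libraries. In siPRMT5 cells it had 2.58, 2.11 and 3.40 CPM with Eth and 9.97, 7.40 and 8.49 CPM with Dex. Eth and Dex did not overlap in either kind of cell, with a fall to 0.530 of the Eth level in siNS cells and a rise of 3.20-fold in siPRMT5 cells. The log2 responses were -0.93 ± 0.19 (adjusted p = 0.00155) and 1.65 ± 0.20 (adjusted p = 4.43e-07), and the interaction was 2.58 ± 0.27 (adjusted p = 1.98e-06). The level with Dex in depleted cells was the highest of the 4 groups and that with Eth was the lowest on average, and the siPRMT5 Eth libraries overlapped with the siNS Dex libraries. Without siNS Dex replicate 3 the siNS response was -0.76 and no longer passed its threshold of 0.01 (adjusted p = 0.0225), so that no gene was classed as reversed, and without siNS Dex replicate 2 PTGES was also reversed, while the CXCR4 interaction was between 2.41 and 2.79 whichever library was left out.

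S1PR1, a receptor of sphingosine-1-phosphate (chromosome 1, 101236865 to 101243713, plus strand), had 4.19, 3.26 and 3.52 CPM with Eth and 4.86, 3.92 and 4.44 CPM with Dex in siNS cells, and these ranges overlapped. In siPRMT5 cells it had 2.90, 1.64 and 2.80 CPM with Eth and 12.7, 11.1 and 13.0 CPM with Dex, a rise of 5.02-fold. Its interaction was 2.02 ± 0.32 (adjusted p = 0.000483). A second receptor of the same lipid, S1PR3, rose in both kinds of cell, from 20.9 to 23.8 CPM to 41.3 to 49.4 CPM in siNS cells and from 17.1 to 20.1 CPM to 59.6 to 64.4 CPM in siPRMT5 cells (interaction of 0.68 ± 0.13, adjusted p = 0.00353).

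STOM encodes stomatin, a membrane protein that binds cholesterol-rich domains (chromosome 9, 121338987 to 121370304, minus strand). It had 52.8, 39.3 and 49.1 CPM with Eth and 53, 42.2 and 44.9 CPM with Dex in siNS cells, so the groups overlapped. The siPRMT5 libraries had 37.1, 32.5 and 38.4 CPM with Eth and 133, 129 and 118 CPM with Dex, a rise of 3.52-fold with no overlap. The interaction was 1.82 ± 0.14 (adjusted p = 1.2e-08). STOM is also a member of the list of glucocorticoid-induced genes described further on.

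LHX6, a LIM-homeodomain transcription factor (chromosome 9, 122202577 to 122229626, minus strand), behaved the other way. It had 2.54, 3.06 and 3.42 CPM with Eth and 12.5, 14.6 and 15.0 CPM with Dex in siNS cells, a rise of 4.67-fold. The siPRMT5 libraries had 1.29, 2.11 and 2.50 CPM with Eth and 2.83, 2.79 and 2.15 CPM with Dex, and these ranges overlapped. The response in siPRMT5 cells was 0.41 ± 0.24 (adjusted p = 0.304) and the interaction was -1.81 ± 0.31 (adjusted p = 0.00114).

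CYP1B1, a cytochrome P450 that oxidizes estrogens and aromatic hydrocarbons (chromosome 2, 38066973 to 38109902, minus strand), had 24.5, 21.8 and 20.1 CPM with Eth and 13.9, 14.3 and 13.5 CPM with Dex in siNS cells. Depleted cells had 51.5, 50.5 and 69.1 CPM with Eth and 14.3, 13.4 and 12.6 CPM with Dex. The fall was thus to 0.627 of the Eth level in siNS cells and to 0.235 in siPRMT5 cells, with an interaction of -1.42 ± 0.19 (adjusted p = 8.53e-05). With Eth, depletion raised CYP1B1 by 1.37 on the log2 scale (adjusted p = 1.61e-09), and with Dex the difference was -0.05 (adjusted p = 0.830). CYP1B1 overlaps CYP1B1-AS1, RMDN2 and RMDN2-AS1, and the strand setting of the counting is not given in the sources used here, so its counts can include theirs.

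**Figure D2:**
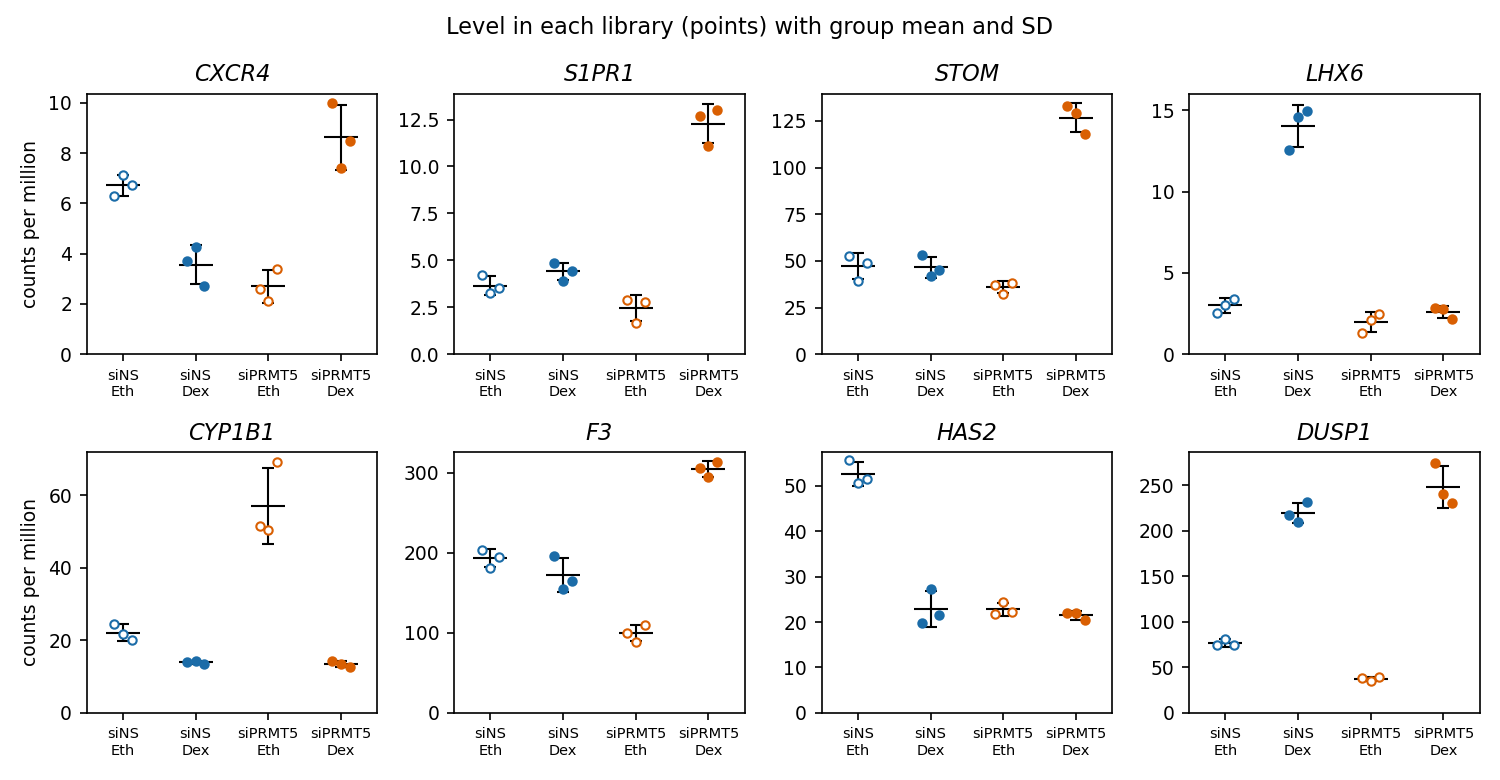
CPM (y axis, from 0) of 8 genes in each of the 12 libraries, open points for Eth and filled points for Dex, with the mean and SD of each group of 3. In CXCR4, S1PR1, STOM and F3 the siPRMT5 Dex libraries are the highest, in LHX6 the siNS Dex libraries are, and in HAS2 the siNS Eth libraries are.

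Among the gained rises, the other large interactions were those of F3 and PKP2. F3 encodes tissue factor, the cell surface protein that starts blood coagulation. It had 203, 181 and 195 CPM with Eth and 196, 155 and 165 CPM with Dex in siNS cells, which overlapped, and 99.7, 89.0 and 109 CPM with Eth and 306, 294 and 314 CPM with Dex in siPRMT5 cells. Its interaction of 1.78 ± 0.13 (adjusted p = 1.42e-09) thus combined a lower level without Dex and a higher one with Dex. PKP2, a desmosomal plakophilin, had 37.6 to 41.1 CPM with Eth and 56.2 to 60.9 CPM with Dex in siNS cells, and rose from 24.5 to 27.0 CPM to 112 to 113 CPM in siPRMT5 cells (interaction of 1.58 ± 0.11, adjusted p = 1.42e-09). Its siNS response of 1.49-fold was just short of the fold limit, so it was classed as gained although it had the same sign in both kinds of cell.

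Among the gained falls, PCDH1, PTGES, TP53I11 and MARCKSL1 had the largest interactions, between -1.56 and -1.33. MARCKSL1, an actin-bundling protein of the MARCKS family, had 21.8 to 28.9 CPM with Eth and 20.8 to 26.5 CPM with Dex in siNS cells, and 17.3 to 21.5 CPM with Eth and 5.55 to 8.21 CPM with Dex in siPRMT5 cells. The interaction was -1.33 ± 0.20 (adjusted p = 0.000253). PCDH1, a protocadherin of cell adhesion, fell to 0.350 of its Eth level in siPRMT5 cells (interaction of -1.56 ± 0.30, adjusted p = 0.00319), and its siNS groups overlapped. PTGES, which makes prostaglandin E2, had 3.31 to 4.19 CPM with Eth and 3.92 to 7.77 CPM with Dex in siNS cells, and 23.7 to 28.0 CPM with Eth and 14.1 to 19.1 CPM with Dex in siPRMT5 cells (interaction of -1.40 ± 0.27, adjusted p = 0.00364). Its siPRMT5 level stayed above its siNS level with and without Dex. TP53I11 had an interaction of -1.35 ± 0.27 (adjusted p = 0.0041) and overlaps TSPAN18. By class, the gained falls had a median GC content of 55.0% and the gained rises of 44.4%, and the corrected fit kept 76.6% and 96.4% of them.

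Among the lost rises, LHX6 had the largest interaction, before KRT7, PLXNA3 and CRIP2. KRT7, a keratin of simple epithelia, rose from 1.77 to 3.57 CPM to 11 to 12.5 CPM in siNS cells, a rise of 3.91-fold. In siPRMT5 cells it already had 8.50 to 10.1 CPM with Eth and reached 13.8 to 14.1 CPM with Dex (interaction of -1.36 ± 0.27, adjusted p = 0.00451), and these ranges did not overlap. This siPRMT5 response of 1.51-fold missed the limit of 0.01 (adjusted p = 0.0141), and the GC-corrected fit classed KRT7 as weakened. Its overlap with KRT7-AS, KRT86 and KRT87P makes its counts uncertain. PLXNA3, a semaphorin receptor, and CRIP2, a LIM domain protein, rose by 1.69-fold and 1.53-fold in siNS cells, and their interactions were -1.10 ± 0.23 (adjusted p = 0.00695) and -1.0 ± 0.18 (adjusted p = 0.00144). With the GC correction CRIP2 kept its interaction call and had no response called in either kind of cell.

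Among the lost falls, HAS2, a hyaluronan synthase, had the largest interaction (1.13 ± 0.14, adjusted p = 3.73e-05). It fell from 55.6, 50.7 and 51.5 CPM to 19.8, 27.3 and 21.5 CPM in siNS cells. In siPRMT5 cells it had 21.7, 24.4 and 22.3 CPM with Eth and 22.0, 22.0 and 20.4 CPM with Dex. The level in depleted cells without Dex was thus already in the range of siNS cells with Dex. The next were the transcription factors FOXA1 (0.89 ± 0.25, adjusted p = 0.0402) and NKX2-8 (0.84 ± 0.21, adjusted p = 0.0198) and RASEF (0.80 ± 0.22, adjusted p = 0.0402), all under 10 CPM in every library. The call of FOXA1 was lost without any 1 of 9 of the 12 libraries (adjusted p up to 0.127), that of NKX2-8 without any 1 of 4 (up to 0.0567) and that of RASEF without any 1 of 9 (up to 0.133) and with the GC correction (0.0542).

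**Figure D3:**
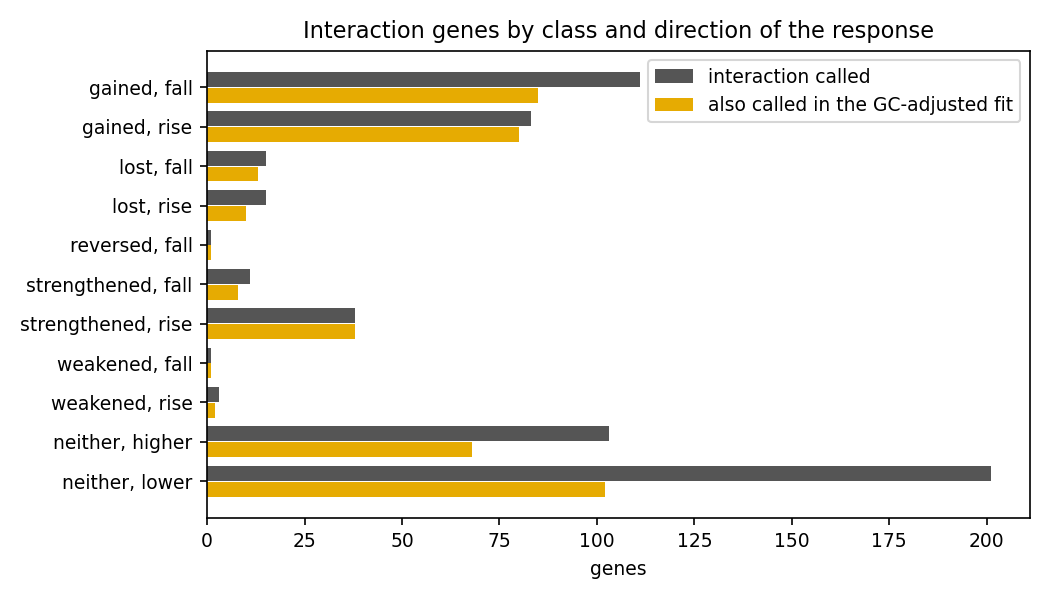
Number of genes with an interaction call (x axis) in each class and direction of the response, and the number of these that were also called after the GC correction. The gained classes hold 83 rises and 111 falls, of which 80 and 85 were kept, and the class with no response called and a negative interaction kept 102 of 201.

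The strengthened responses were mostly rises. FBLN1, a fibulin of the extracellular matrix, rose from 4.42, 2.96 and 3.73 CPM to 12.9, 8.39 and 10.2 CPM in siNS cells and from 1.07, 1.53 and 1.0 CPM to 11.5, 11.3 and 12.3 CPM in siPRMT5 cells. The levels with Dex overlapped between the 2 kinds of cell, while those with Eth did not, and the interaction was 1.77 ± 0.31 (adjusted p = 0.00148). PDZD2, a protein with several PDZ domains, rose from 21.3 to 27.7 CPM to 36.8 to 41.1 CPM in siNS cells and from 43.0 to 52.6 CPM to 217 to 261 CPM in siPRMT5 cells (1.67 ± 0.15, adjusted p = 7.96e-08). PLEKHA7, a junction protein, had an interaction of 1.33 ± 0.36 (adjusted p = 0.0336), lost without any 1 of 7 libraries (up to 0.236). The strengthened falls after CYP1B1 were those of ADAM19, a membrane metalloprotease (-0.82 ± 0.12, adjusted p = 0.000261), and POU2F2, an octamer-binding transcription factor (-0.66 ± 0.13, adjusted p = 0.00427). Both had higher levels in siPRMT5 cells than in siNS cells with Eth, by 0.41 and 0.75 on the log2 scale.

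The 4 weakened responses were those of ITGA10, FN1, PDGFB and ESM1. ITGA10, an integrin subunit that binds collagen, rose from 1.21, 1.22 and 1.45 CPM to 12.5, 12.1 and 10.7 CPM in siNS cells, a rise of 9.07-fold. In siPRMT5 cells it rose from 9.23, 7.16 and 10.1 CPM to 35.4, 30.3 and 35.8 CPM, a rise of 3.83-fold from a higher start. The fold was thus smaller and the level higher (interaction of -1.24 ± 0.26, adjusted p = 0.00651). FN1, which encodes fibronectin, rose from 134 to 159 CPM to 469 to 486 CPM in siNS cells and from 330 to 384 CPM to 550 to 670 CPM in siPRMT5 cells (-0.94 ± 0.13, adjusted p = 8.53e-05). PDGFB, a growth factor, had an interaction of -0.70 ± 0.18 (adjusted p = 0.0308), lost with the GC correction (0.121) and without any 1 of 7 libraries (up to 0.108). ESM1, a secreted proteoglycan of endothelium and tumors, fell from 27.4 to 34.3 CPM to 3.00 to 4.47 CPM in siNS cells and from 7.5 to 8.22 CPM to 2.49 to 2.88 CPM in siPRMT5 cells (1.5 ± 0.24, adjusted p = 0.000549).

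The interaction is also the effect of depletion with Dex minus that with Eth, so the levels were compared in both. Depletion changed 42.1% of the genes tested with Eth and 42.4% with Dex, at an adjusted p-value under 0.05. Of the 582 genes, 191 differed between siPRMT5 and siNS cells with Eth only, 185 with Dex only and 206 with both, and 62 of these 206 differed in opposite directions. Among the 83 gained rises, the level in siPRMT5 cells was lower with Eth in 43 and higher in 8. With Dex it was higher in 51 and lower in 14. Among the 111 gained falls, it was higher with Eth in 66 and lower in 10, and lower with Dex in 57 and higher in 9. Among the 38 strengthened rises, 15 were lower and 4 higher with Eth, and 29 were higher and 4 lower with Dex. The more frequent directions follow in part from how the interaction and the classes are defined, so they are a description. The interaction therefore covers levels that met with Dex, as those of CYP1B1 did, and levels that parted with Dex, as those of ITGB4 did. It also covers levels that crossed, as those of S1PR1 did, lower with Eth and higher with Dex in siPRMT5 cells.

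Established glucocorticoid targets differed in their interaction. FKBP5, a cochaperone that restrains GR, rose from 111 to 115 CPM to 501 to 505 CPM in siNS cells and from 84.0 to 97.4 CPM to 681 to 776 CPM in siPRMT5 cells (interaction of 0.84 ± 0.10, adjusted p = 2.31e-05). DUSP1, a phosphatase that turns off MAP kinases, rose from 74.1, 81.6 and 74.8 CPM to 217, 210 and 231 CPM in siNS cells and from 38.1, 34.9 and 39.2 CPM to 275, 241 and 231 CPM in siPRMT5 cells (1.22 ± 0.11, adjusted p = 7.96e-08). For TSC22D3, which encodes GILZ, the rise was 12.4-fold in siNS cells and 9.44-fold in siPRMT5 cells, and the interaction of -0.40 ± 0.15 did not pass the test (adjusted p = 0.125), except without the siNS Dex replicate 2 library (adjusted p = 0.0320). Nor did those of the clock gene PER1 (-0.20 ± 0.15, adjusted p = 0.491), the transcription factor KLF9 (0.30 ± 0.14, adjusted p = 0.248), the RNA decay factor ZFP36 (-0.29 ± 0.16, adjusted p = 0.345) and the plasminogen activator PLAT (-0.32 ± 0.15, adjusted p = 0.238). SGK1, a kinase of ion transport, rose by 2.62-fold in both kinds of cell. CCBE1, a factor of lymphatic vessel growth, and IGFBP3, which binds insulin-like growth factors, rose by 2.20-fold and 2.52-fold in siNS cells and by 3.44-fold and 4.77-fold in siPRMT5 cells. Their interactions were 0.65 ± 0.12 (adjusted p = 0.00296) and 0.92 ± 0.10 (adjusted p = 3.34e-06), yet their levels with Dex were lower in siPRMT5 cells, since those with Eth were lower still. For IGFBP3 these were 463 to 516 CPM in siNS Dex libraries and 295 to 310 CPM in siPRMT5 Dex libraries.

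The counts of calls in the 19 lists stand beside 3.8% called, 1.58% positive and 2.23% negative among all genes tested. The lists were chosen with earlier results of these data known, and 13.0% of their tested genes were called. CXCR4, S1PR1, STOM and CYP1B1 had also been named with such results known, so their calls within a list are no separate result. In the list of glucocorticoid-induced genes, 27 of 30 genes could be tested. The interaction was positive for 7 and negative for 1, ITGA10, with a list median of 0.30 against -0.0033 for all genes. The list rose in 19 genes in siNS cells and in 22 in siPRMT5 cells, and 1 of its genes had a fall called in siPRMT5 cells. With the GC correction, 10 of its interactions were called positive and 2 negative. Beside STOM, FKBP5 and DUSP1, the positive calls were the metallothionein MT1E (0.78 ± 0.11, adjusted p = 8.91e-05), ERRFI1, an inhibitor of the EGF receptor (0.68 ± 0.10, adjusted p = 0.000144), TIPARP, a mono-ADP-ribosyltransferase (0.63 ± 0.12, adjusted p = 0.00416), and the caveolar protein CAVIN2 (0.43 ± 0.10, adjusted p = 0.0101). ERRFI1 showed no response in siNS cells that passed the test, with mean levels of 765 CPM with Eth and 817 CPM with Dex, and rose from 521 to 890 CPM in siPRMT5 cells.

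Of 19 tested inflammatory mediators, 4 had a positive interaction and 1, CSF1, a negative one. Their list median was 0.25. IL1A, a cytokine that starts inflammation, fell from 95.7, 94.8 and 94.3 CPM to 48.4, 56.7 and 63.7 CPM in siNS cells, and had 37.2, 31.8 and 31.3 CPM with Eth and 35.6, 32.9 and 29.9 CPM with Dex in siPRMT5 cells (interaction of 0.73 ± 0.13, adjusted p = 0.00167). MMP1, an interstitial collagenase, fell to 0.437 of its Eth level in siNS cells and was at 0.702 of it in siPRMT5 cells (0.68 ± 0.18, adjusted p = 0.0305, lost without a filter on low counts and without any 1 of 6 libraries, up to 0.115). The neutrophil chemokines CXCL2 and CXCL1 rose in siPRMT5 cells by 3.34-fold and 1.76-fold, with siNS groups that overlapped, and their interactions were 1.64 ± 0.38 (adjusted p = 0.0122) and 0.97 ± 0.27 (adjusted p = 0.0393). CXCL2 was under 6 CPM in every library and lost its call without the siNS Eth replicate 3 library (0.0572), and CXCL1 lost its call without any 1 of 8 libraries (up to 0.131). CSF1, a growth factor of macrophages, fell more in siPRMT5 cells (-0.38 ± 0.10, adjusted p = 0.0311), a call lost with the GC correction (0.34) and without any 1 of 7 libraries (up to 0.106).

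Of 25 tested cell surface receptors of migration signals, CXCR4, S1PR1 and S1PR3 had a positive interaction, against 1.58% of all genes tested. CXCR4 and S1PR1 had been named with earlier results of these data known, which leaves S1PR3 as the other gene with a positive interaction. IL6R, a receptor subunit of interleukin-6, had a negative one (-0.64 ± 0.16, adjusted p = 0.0225), lost without any 1 of 4 libraries (up to 0.0823). The list median was 0.13.

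The list of plasminogen activation, matrix and adhesion had the most calls and also the most genes tested. It had 14 calls in 36 genes, 6 positive and 8 negative, against 3.8% of all genes tested, with a median of -0.17. PLAU, which encodes the urokinase plasminogen activator, fell from a mean of 294 to 143 CPM in siNS cells and had means of 230 CPM with Eth and 165 CPM with Dex in siPRMT5 cells (interaction of 0.56 ± 0.10, adjusted p = 0.00184). The other positive calls were HAS2, IGFBP3, CCBE1, MMP1 and CCN2, a matricellular protein (0.42 ± 0.09, adjusted p = 0.00685). Among the negative calls, ITGB4, the integrin subunit of hemidesmosomes, had 25.4, 33.5 and 29.3 CPM with Eth and 27.1, 29.1 and 34.6 CPM with Dex in siNS cells, and 28.4, 30.3 and 30.0 CPM with Eth and 13.4, 10.9 and 16.5 CPM with Dex in siPRMT5 cells. Only its siPRMT5 Dex libraries stood apart, and its interaction was -1.18 ± 0.18 (adjusted p = 0.000372). The laminin-binding integrin subunit ITGA3 (-0.60 ± 0.11, adjusted p = 0.00296), the membrane collagenase MMP14 (-0.66 ± 0.12, adjusted p = 0.00296) and the metalloprotease inhibitor TIMP3 (-0.76 ± 0.15, adjusted p = 0.00322) also had falls called in siPRMT5 cells alone. The siNS groups of TIMP3 did not overlap either, at 40.9 to 47.2 CPM with Eth and 27.5 to 36.9 CPM with Dex (log2 response of -0.44, adjusted p = 0.00563), a change under the fold limit. With the GC correction ITGA3 kept its interaction call but not that of its fall. FN1, COL6A1 (-0.61 ± 0.13, adjusted p = 0.00685), THBS1 (-0.47 ± 0.12, adjusted p = 0.0212) and ITGB3 (-1.25 ± 0.33, adjusted p = 0.0283) completed the negative calls. The call of THBS1 was lost without any 1 of 5 libraries (up to 0.0704) and that of ITGB3 without any 1 of 5 (up to 0.129).

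Among 23 glycolysis and hypoxia genes, 6 had a negative interaction and 1, ADM, a positive one, with a median of -0.20. All 6 were falls called in siPRMT5 cells alone. NDRG1, a stress-responsive growth regulator, had 213, 252 and 229 CPM with Eth and 162, 168 and 173 CPM with Dex in siNS cells, and fell from 185, 171 and 160 CPM to 74.1, 73.0 and 72.8 CPM in siPRMT5 cells (-0.77 ± 0.10, adjusted p = 6.36e-05). EGLN3, a prolyl hydroxylase that senses oxygen, had 6.83 to 8.28 CPM with Eth and 7.25 to 8.48 CPM with Dex in siNS cells, and fell from 20.3 to 22.9 CPM to 10.4 to 11.3 CPM in siPRMT5 cells (-1.01 ± 0.18, adjusted p = 0.00184). The angiogenic factor VEGFA (-0.56 ± 0.10, adjusted p = 0.00148), the glycolytic regulators PFKFB4 (-0.77 ± 0.17, adjusted p = 0.0103) and PFKFB3 (-0.44 ± 0.10, adjusted p = 0.0153) and the enolase ENO2 (-0.50 ± 0.12, adjusted p = 0.0163) were the others. In siNS cells the groups of NDRG1, VEGFA, PFKFB3 and ENO2 did not overlap either and were lower with Dex. VEGFA, for example, had 77 to 88.4 CPM with Eth and 68.0 to 73.5 CPM with Dex there. The siNS groups of EGLN3 and PFKFB4 overlapped. PFKFB3 lost its call with the GC correction (0.115) and without the siNS Dex replicate 1 library (0.0572), and ENO2 without any 1 of 4 libraries (up to 0.0598). ADM, which encodes the vasodilator adrenomedullin, had an interaction of 0.64 ± 0.13 (adjusted p = 0.00564).

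Among 24 cholesterol genes, 4 had a negative interaction and none a positive one, with a median of -0.15, and no response passed the thresholds in either kind of cell. By edgeR's test 8 of the 24 interactions had an unadjusted p-value under 0.05, none of them positive, and DESeq2 called 5, none of them positive. For the Dex responses, 9 and 6 genes had an unadjusted p-value under 0.05 in siNS and siPRMT5 cells, and DESeq2 called none by the same thresholds. Of the negative calls, those of the enzymes MVD (-0.59 ± 0.16, adjusted p = 0.0392) and MVK (-0.43 ± 0.12, adjusted p = 0.0438) of the mevalonate pathway and the transcription factor SREBF1 (-0.41 ± 0.11, adjusted p = 0.0369) were lost with the GC correction (0.0623, 0.245 and 0.316), and each without any 1 of 9 or 10 of the 12 libraries (up to 0.119, 0.151 and 0.0982).

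Of 23 AP-1 and immediate early genes, 1 had a positive and 3 a negative interaction, with a median of -0.15. MYC, a growth-promoting transcription factor, had 709, 786 and 762 CPM with Eth and 857, 827 and 902 CPM with Dex in siNS cells, and rose from 421, 384 and 389 CPM to 648, 594 and 622 CPM in siPRMT5 cells (0.45 ± 0.10, adjusted p = 0.00762). The MAP kinase phosphatase DUSP6 (-0.52 ± 0.09, adjusted p = 0.000916), the AP-1 subunit FOSL2 (-0.51 ± 0.09, adjusted p = 0.0012) and the phosphatase DUSP5 (-0.32 ± 0.09, adjusted p = 0.047) had the negative calls. That of DUSP5 was lost with the GC correction (0.224) and without any 1 of 9 libraries (up to 0.141).

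In the other lists there were few calls, and such counts are too small to set apart from the share of 3.8% among all genes tested. The ATF4 list of 22 genes held the lipoprotein receptor VLDLR (-0.57 ± 0.12, adjusted p = 0.00685) and the transcription factor CEBPB (0.59 ± 0.15, adjusted p = 0.0284, lost without any 1 of 8 libraries, up to 0.0819). The 16 genes of the aryl hydrocarbon receptor and oxidative stress list held CYP1B1 and GCLC, a subunit of the enzyme that starts glutathione synthesis (0.71 ± 0.11, adjusted p = 0.000393). The 28 interferon-stimulated genes held PARP14 (-0.61 ± 0.16, adjusted p = 0.0274) and IRF1 (-0.60 ± 0.17, adjusted p = 0.0428), the 24 TGF-beta, BMP and Hippo genes the ligands BMP4 (-0.68 ± 0.19, adjusted p = 0.0438) and TGFB1 (-0.44 ± 0.12, adjusted p = 0.0402). Each of these 4 calls was lost without any 1 of 6 to 10 libraries (up to 0.131), and those of IRF1, BMP4 and TGFB1 also with the GC correction (0.102, 0.0621 and 0.248). The 15 clock genes held the repressor BHLHE40 (-0.48 ± 0.11, adjusted p = 0.00854), the 12 tested genes of epithelial and mesenchymal identity KRT7, and the 11 arginine methyltransferases and PRMT5 partners the kinase RIOK1 (0.40 ± 0.11, adjusted p = 0.0305, lost with the GC correction, 0.0793, and without any 1 of 8 libraries, up to 0.0993).

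No gene had an interaction call in 5 lists, against 3.8% of all genes tested. These lists were the 25 tested genes of GR, its chaperones and coregulators, the 21 p53 targets, the 26 mitosis genes, the 28 DNA replication genes and the 31 Sm proteins and splicing factors. By edgeR's test, 11, 4, 2, 5 and 7 of these genes had an unadjusted p-value under 0.05, in the same order, and DESeq2 called 1, 1, 0, 0 and 0 of them. With the GC correction, 2 genes of the GR list had a negative interaction call, and 2 p53 targets had a positive and 1 a negative one, while the other 3 lists again had none. At a share of 3.8%, lists of this size would hold few calls, so none of the 5 is shown to differ from all genes.

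**Figure D4:**
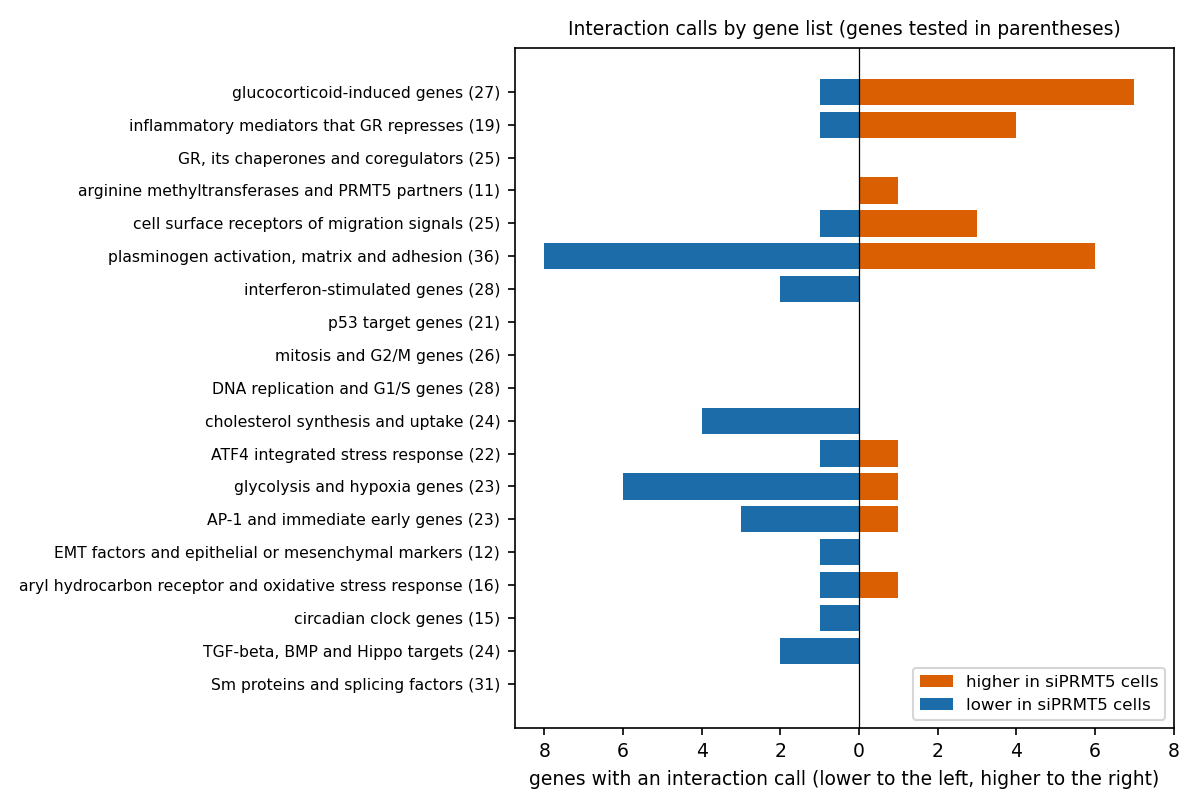
Number of genes with an interaction call in each of the 19 gene lists, negative to the left and positive to the right of zero (x axis), with the number of genes tested in parentheses. Glucocorticoid-induced genes extend to 7 on the right, matrix and adhesion genes to 8 on the left and 6 on the right, and 5 lists have no bar. Among all genes tested, 1.58% were positive and 2.23% negative.

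The 250 bases before an annotated transcription start were read from RefSeq promoters (GRCh38.p14), which had an entry for 10035 of the 15298 genes tested. Only the first entry listed for a gene was used, so a window need not lie before the outermost start of its gene. They were searched on both strands for the GR half-site AGAACA and the AP-1 site TGACTCA, which did not overlap in the windows shown. The half-site stood in 7.08% and the AP-1 site in 2.67% of the windows of genes tested. It stood in 4 of the 60 gained rises and in 10 of the 86 gained falls with an entry, and the AP-1 site in 3 of the 60 and in 3 of the 86. The full palindrome of 2 half-sites 3 bases apart stood in no window of the genes tested. The windows of CXCR4, S1PR1, STOM and LHX6 held neither motif, and CYP1B1 had no entry. By the gene coordinates given above, the windows of CXCR4 and LHX6 lie inside the gene, and those of S1PR1 and STOM reach into it. Sequence before the outermost start of these genes was thus covered in part or not at all. A match is a description of letters, and these windows do not cover distant elements. Among named genes not shown, the half-site stood in the windows of ITGA10, RIOK1 and IL6R, and the AP-1 site in that of ENO2. Windows of 4 other named genes with a match follow, 5′ to 3′ on the gene's strand, with the match in capitals. They show the AP-1 match before F3 (chr1:94541760-94542009, minus strand), whose rise was gained, and before IL1A (chr2:112784494-112784743, minus strand), whose fall was lost. They also show the half-site before CXCL2 (chr4:74099196-74099445, minus strand), whose rise was gained, and before BHLHE40 (chr3:4979187-4979436, plus strand), whose fall was gained. BHLHE40 was also lower with Dex in siNS cells, at 308 to 350 CPM with Eth and 235 to 286 CPM with Dex.
F3: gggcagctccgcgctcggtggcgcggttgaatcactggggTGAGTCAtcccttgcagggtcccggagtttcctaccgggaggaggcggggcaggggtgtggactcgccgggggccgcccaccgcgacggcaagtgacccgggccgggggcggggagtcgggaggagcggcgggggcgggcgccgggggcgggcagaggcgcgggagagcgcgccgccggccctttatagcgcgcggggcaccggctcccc
IL1A: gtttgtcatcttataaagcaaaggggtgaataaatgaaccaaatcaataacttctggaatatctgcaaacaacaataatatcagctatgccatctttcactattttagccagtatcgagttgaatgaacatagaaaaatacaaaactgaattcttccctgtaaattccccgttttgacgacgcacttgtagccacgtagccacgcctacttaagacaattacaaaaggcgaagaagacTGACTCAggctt
CXCL2: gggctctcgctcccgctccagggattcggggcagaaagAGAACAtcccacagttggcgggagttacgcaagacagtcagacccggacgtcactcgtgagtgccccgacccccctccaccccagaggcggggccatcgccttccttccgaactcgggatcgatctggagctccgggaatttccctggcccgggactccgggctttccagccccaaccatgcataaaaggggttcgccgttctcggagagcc
BHLHE40: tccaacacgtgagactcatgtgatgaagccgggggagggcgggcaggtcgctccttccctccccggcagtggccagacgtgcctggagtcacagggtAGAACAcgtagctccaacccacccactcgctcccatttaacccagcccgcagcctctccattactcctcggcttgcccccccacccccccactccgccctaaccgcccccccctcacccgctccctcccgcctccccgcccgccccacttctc

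The interaction was also computed for HP1γ, another chromatin protein, with cells depleted of it (siHP1γ). It shares the siNS libraries with the PRMT5 interaction, so the values are only set side by side. It was called for 61 of the 15298 genes tested, and the strength of the depletions was not compared. For CXCR4, S1PR1, STOM, LHX6 and CYP1B1 it was 0.51 (adjusted p = 0.31), 0.06 (adjusted p = 0.938), 0.34 (adjusted p = 0.235), -0.96 (adjusted p = 0.0588) and 0.07 (adjusted p = 0.9). For HAS2 it was 1.16 (adjusted p = 0.000614), beside 1.13 with siPRMT5, and for FN1 it was -0.86 (adjusted p = 0.000872), beside -0.94. For ESM1 it was 1.37 (adjusted p = 0.00299) and for KRT7 -1.47 (adjusted p = 0.0153), beside 1.5 and -1.36. For TSC22D3 it was -1.0 (adjusted p = 0.00104) and for PLAT -0.97 (adjusted p = 0.000872), beside the values of -0.40 and -0.32 that did not pass the test with siPRMT5.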

How the data were processed

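Libraries of MDA-MB-231 cells in 6 conditions, 3 replicates each, were prepared with Lexogen kits. According to the submitters' processing notes, reads were mapped on hg38 with Bowtie2 2.4.2, counted with HTSeq 0.9.1 and compared with DESeq2 2.11.40.7. The authors deposited raw counts per gene symbol for each library, whole numbers without normalization for 60642 symbols. Bowtie2 does not split reads over introns, so reads across exon junctions can be lost. The strand setting and annotation are not given in the sources used here, so overlapping genes can share counts. Many of the named genes, HAS2, ITGB4, IRF1, TIMP3 and THBS1 among them, overlap another annotated gene. A table of the authors' comparisons (fold changes and adjusted p-values) was not used.

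From the counts, edgeR 4.0.16 in R 4.3.3 kept 15298 genes (filterByExpr over the 6 conditions), scaled them by TMM and fitted all 18 libraries with 1 mean per condition (glmQLFit, glmQLFTest, 12 residual degrees of freedom). The libraries with siRNA against HP1γ served to estimate the spread and for one comparison of values. The code was tested on simulated data. Levels are CPM per library after TMM scaling, not corrected for gene length, so they were compared within a gene only. Coordinates, transcript GC content and overlaps came from GENCODE 44 on hg38, with a GC value for 88.2% of the genes tested.

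The groups came from the sample titles. The genes named are CXCR4, S1PR1, STOM, LHX6 and CYP1B1, the 3 or 4 largest interactions of each class among genes with at least 5 CPM on average and the same sign in each same-numbered set (reversed genes all), 13 genes known as glucocorticoid targets or from the study, and up to 4 called genes of each of 19 lists. These members and lists were chosen with earlier results of these data known. The values of some genes that this rule names are not reported here. A further 15 called list members were named after their values were seen: CAVIN2, CCN2, COL6A1, CSF1, ENO2, ERRFI1, ITGA3, MMP14, MT1E, PFKFB3, PLAU, THBS1, TIMP3, TIPARP and VEGFA. The GC correction (a loess of each library's deviation on transcript GC content, span 0.3, as an offset) was also added after the data were seen. Genes without a GC value were left uncorrected.

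Alternatives were DESeq2 1.42.0, the 12 siNS and siPRMT5 libraries alone, DESeq2's size factors or library size alone, no filter, a minimum of 10 counts for each library, other thresholds, a replicate block, and each of the 12 libraries left out.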

Additional observations from a re-analysis of the deposited data

Results flagged for a closer look

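Each interaction is a test of the difference between the Dex response in siPRMT5 cells and that in siNS cells, and each that passed the test is given here with its log2 value. Among all genes, 241 were positive and 341 negative.

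In the reversed response the interaction was 2.58 for CXCR4. In the gained rises the interactions were 2.02 for S1PR1, 1.82 for STOM, 1.78 for F3, 1.58 for PKP2, 1.64 for CXCL2, 0.97 for CXCL1, 0.45 for MYC, 0.71 for GCLC, 0.42 for CCN2, 0.68 for ERRFI1 and 0.63 for TIPARP. In the gained falls the interactions were -1.56 for PCDH1, -1.40 for PTGES, -1.35 for TP53I11, -1.33 for MARCKSL1, -1.18 for ITGB4, -0.61 for PARP14, -0.60 for IRF1, -0.57 for VLDLR, -1.01 for EGLN3, -0.77 for PFKFB4, -0.77 for NDRG1, -0.48 for BHLHE40, -0.68 for BMP4, -0.50 for ENO2, -0.60 for ITGA3, -0.66 for MMP14, -0.44 for PFKFB3, -0.76 for TIMP3 and -0.56 for VEGFA. In the lost rises the interactions were -1.81 for LHX6, -1.36 for KRT7, -1.10 for PLXNA3 and -1.0 for CRIP2. In the lost falls the interactions were 1.13 for HAS2, 0.89 for FOXA1, 0.84 for NKX2-8, 0.80 for RASEF, 0.73 for IL1A, 0.68 for MMP1 and 0.56 for PLAU. In the strengthened rises the interactions were 1.77 for FBLN1, 1.67 for PDZD2, 1.33 for PLEKHA7, 0.84 for FKBP5, 1.22 for DUSP1, 0.65 for CCBE1, 0.92 for IGFBP3, 0.68 for S1PR3, 0.59 for CEBPB, 0.43 for CAVIN2 and 0.78 for MT1E. In the strengthened falls the interactions were -1.42 for CYP1B1, -0.82 for ADAM19, -0.66 for POU2F2 and -0.38 for CSF1. In the weakened rises the interactions were -1.24 for ITGA10, -0.94 for FN1 and -0.70 for PDGFB. In the weakened fall the interaction was 1.5 for ESM1. Among genes with no response called in either kind of cell, the positive interactions were 0.57 for PRMT5, 0.40 for RIOK1 and 0.64 for ADM. Among the same kind of gene, the negative interactions were -0.64 for IL6R, -1.25 for ITGB3, -0.59 for MVD, -0.43 for MVK, -0.41 for SREBF1, -0.52 for DUSP6, -0.51 for FOSL2, -0.32 for DUSP5, -0.44 for TGFB1, -0.61 for COL6A1 and -0.47 for THBS1.

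The groups hold 3 libraries each, too few for a search for single outlying libraries, and no cause of these differences was tested.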

How the results depend on the processing

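Between 338 and 807 genes had an interaction call when 1 library was left out (136 to 335 positive, 186 to 472 negative), against 582. The lost responses then ranged from 18 to 44, the weakened from 3 to 7, the reversed from 0 to 2 and the genes with no response called from 139 to 504. No other alternative that kept the thresholds moved the count of calls by over 1.5 times, with 574 to 716 calls or, with DESeq2's size factors, 568. The weakened responses numbered 10 without a filter, 7 with the GC correction and 8 with the GC correction and the replicate block. Without a filter, the calls of RASEF, MMP1, RIOK1, IRF1, MVK and DUSP5 were lost, with the 12 libraries alone those of RASEF, IRF1 and DUSP5, with DESeq2 that of RASEF, and with either other scaling that of DUSP5. The cause was not tested.

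Other thresholds moved the classes by construction. A Dex fold of at least 2 left 194 Dex responses in siNS and 373 in siPRMT5 cells, and 97 gained, 12 lost, 0 reversed, 24 strengthened and 2 weakened ones. An adjusted p-value under 0.05 with no fold limit gave 1402 and 2449 responses, and 336 gained, 89 lost, 17 reversed, 97 strengthened, 13 weakened and 30 unclassed genes. A limit of 1.5-fold on the interaction left 317 calls (136 positive, 181 negative), 102 of them with no response called.

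Among the named genes the sign changed for 3 interactions, none of which passed the test. That of SGK1 was -0.00075 and became 0.0054 with DESeq2, 0.0057 with DESeq2's size factors and 0.0038 with at least 10 counts in every library, and between -0.024 and 0.036 with 1 library left out. That of PER1 was -0.20 and became 0.0024 with the GC correction and 0.0041 with the replicate block added, and that of NR3C1 was 0.14 and became -0.0015 and -0.0017.

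The replicate numbers did not pair the libraries. The correlations of the deviations of same-numbered libraries ran from -0.30 to 0.45, and 6 of 18 were over 0.1. With the replicate block, 618 genes had an interaction call (262 positive, 356 negative), and 559 of the 582 were kept. Among the named genes the block ended the call of MVK (adjusted p = 0.0534).

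With 3 libraries a group at this depth, an interaction that missed the threshold is not shown to be absent.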
